A study of Homo sapiens with 2 samples.

Results

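The genes described here encode the machinery that carries newly made proteins into the endoplasmic reticulum (ER) and between the ER and the Golgi. They comprise the translocon with the signal recognition apparatus, the COPII coat, the COPI coat and the KDEL receptors. The members were chosen by gene name, as probe sets that the platform annotation pairs with 1 of 43 listed symbols. The list was drawn up with earlier results of these data known. Of the 43 genes, 41 had at least 1 such probe set, out of 19775 genes represented on the array in this way. SEC61G and KDELR2 had none and were not analysed here. The cells were PC-3, an androgen-independent human prostate cancer line, and RD stands for riccardin D, a macrocyclic bisbibenzyl from a liverwort. RNA was taken from PC-3 cells exposed to RD (10 µmol/L) for 24 h and from control PC-3 cells, with 1 Affymetrix HG-U133 Plus 2.0 array per condition. The treatment protocol names DMSO vehicle for the control, whereas its source name reads as untreated, so that the control received DMSO rests on the protocol. Both arrays come from this single line and no allele or further agent is named for either.

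Ribosomes that begin to make a secreted or membrane protein are recognised by the signal recognition particle (SRP), which binds the signal sequence and docks at its receptor on the ER membrane. The chain then passes through the Sec61 channel, the translocon-associated protein (TRAP) complex assists, and signal peptidase removes the signal sequence. Finished proteins leave the ER in vesicles coated by COPII, and COPI vesicles return escaped ER residents that KDEL receptors have bound. Cells that secrete heavily are known for abundant transcripts of this machinery, and part of it is induced through the transcription factor XBP1 when unfolded proteins gather in the ER.

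Array values were MAS5 signals (linear intensities), and the difference given for a gene is log2 of the RD signal minus log2 of the control signal. The probe set with the highest mean log2 signal represented its gene. A call of higher or lower needed a difference of 2-fold or more between both signals, with the larger signal at or above 66.9, the median signal over both arrays together, termed the floor. With 1 array per condition there is no replicate spread and no p-value, and precision is limited by the number of arrays. The error that the files do give is how far probe sets within a gene disagree, as an SD of their log2 differences, which was 0.34 over all genes for probe sets with a signal of at least 377.4 (the 75th percentile) and 0.33 over 66 such probe sets of 23 members. Over all probe sets at the floor, dim ones included, this SD was 0.76, and it was 0.37 over 83 such probe sets of 27 members. It describes probe sets, not cultures. The trimmed mean signals were 495.8 for control and 495.9 for RD, but MAS5 scaling can set this level, so it is no check of the arrays. The median signals were 65.9 and 67.8, and 12818 genes reached the floor. Of the markers of the line, VIM (29512.2 in control and 31652.1 in RD) and KRT18 (10224.2 and 15416.6) were bright, whereas EPCAM and CDH1 lay under the floor on both arrays. KRT8 was dim (113.8 and 159.3) and PLAU differed widely (12853.3 and 1066.8). Of 3 androgen-dependent prostate genes measured, KLK2 and TMPRSS2 lay under the floor and KLK3 was dim (131.4 and 230.6). Of 7 leukocyte, endothelial and fibroblast genes, 4 lay under the floor and none exceeded 370.6.

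Transcripts of the protein entry and vesicle coat machinery had higher signals in RD-treated cells as a group. Of the 41 genes, all reached the floor, 37 had a higher signal and 4 a lower one, 13 were counted as higher and none as lower. Among all genes at the floor, 12.1% were counted as higher, 13.3% as lower and 49.9% had a higher RD signal by any amount. The median log2 difference of the members was 0.70, which is 1.63-fold, against -0.0022 over all genes at the floor. The shift was broad and moderate, since 28 members were at least 1.5-fold higher (22.8% of all genes) and none was at least 1.5-fold lower (24.7% of all genes). Most members were bright, and 40 of the 41 reached the 75th percentile on both arrays. Of these 40, 13 were counted as higher, compared with 7.96% of all genes in that range. The array reads RNA pooled over a culture, so that more RNA per cell and a larger share of cells with that RNA cannot be told apart.

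**Figure D1:**
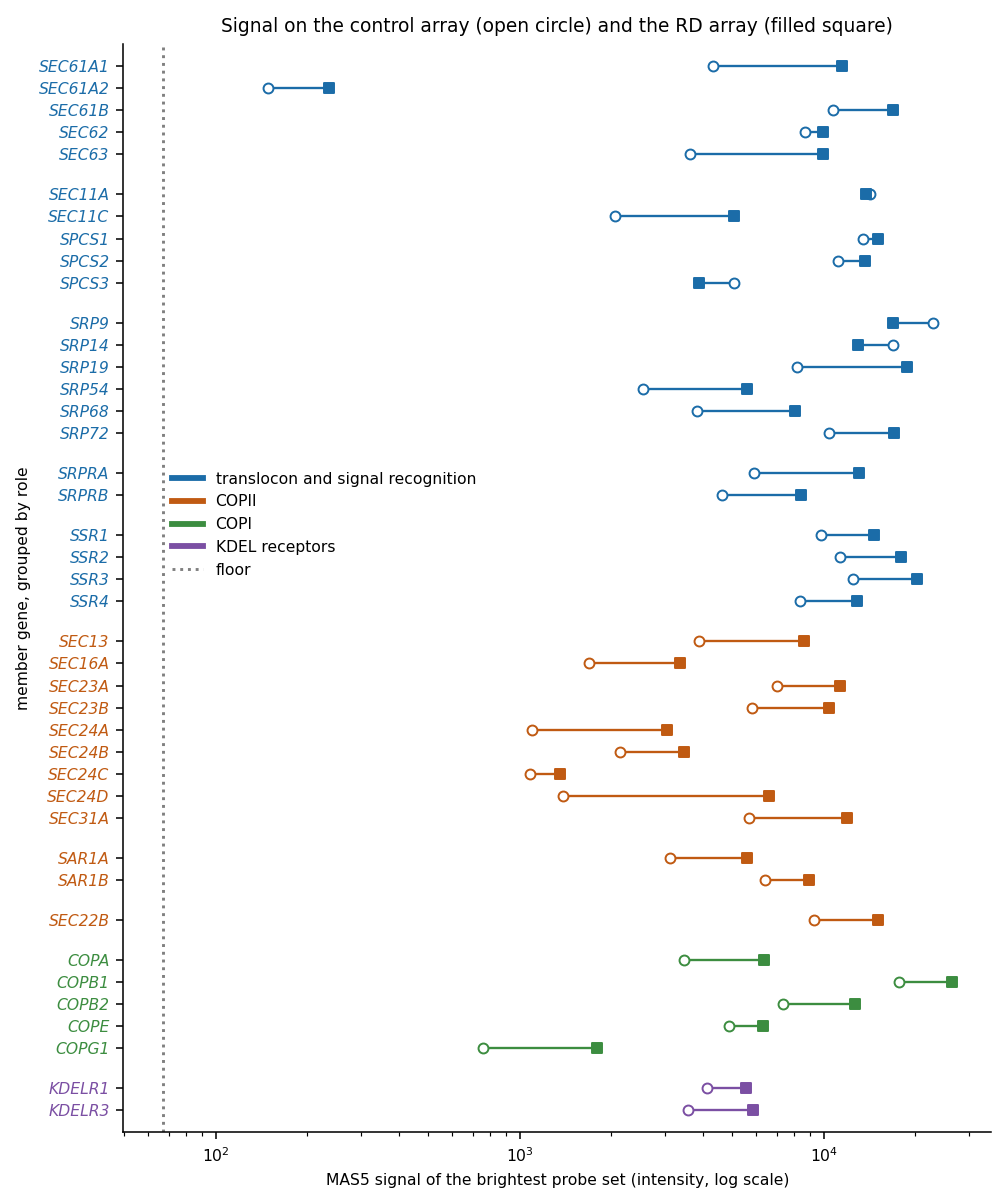
MAS5 signal (horizontal, log scale) of the brightest probe set of each of the 41 genes on the control array (open circle) and the RD array (filled square), joined by a line, with genes grouped by role and the floor of 66.9 as a dotted line. Squares lie to the right of circles for 37 genes, and SEC11A, SPCS3, SRP9 and SRP14 are the exceptions.

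The 41 genes had 100 probe sets, of which 97 reached the floor. Apart from the brightest probe set of each gene, 56 reached the floor, and 50 of these had a higher signal in RD-treated cells. Together, 87 of the 97 were higher, compared with 51% of all single-gene probe sets at the floor. In 22 of the 27 genes with at least 2 probe sets at the floor, every probe set was higher. SEC11A was the member whose probe sets were all lower, and SEC61A2, SEC62, SPCS3 and SAR1B had probe sets on both sides of 0. In no member did probe sets exceed 2-fold in opposite directions. The remaining 14 genes, SRP9, SRP14, SRP19 and SEC24C among them, rested on 1 probe set each.

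**Figure D2:**
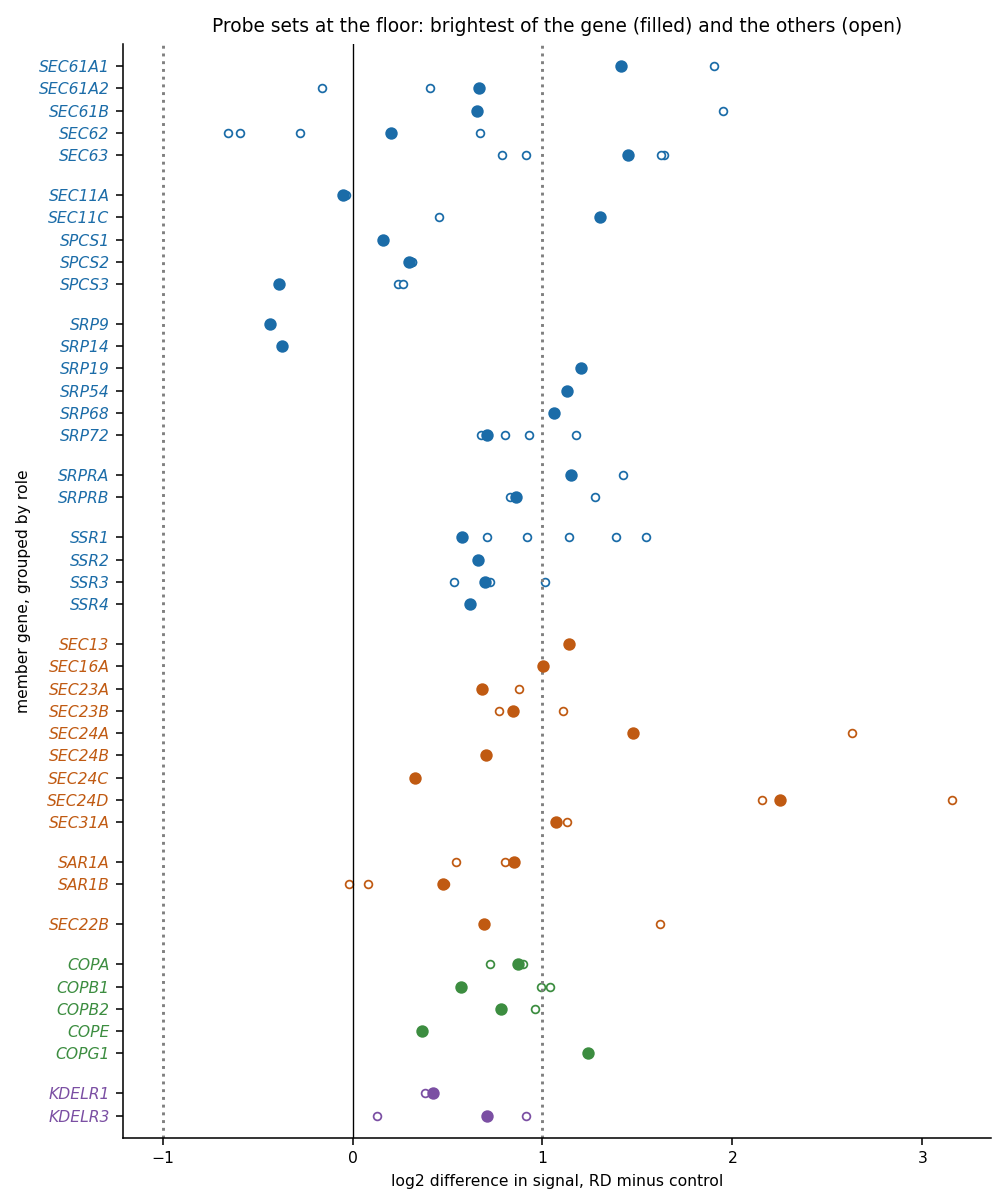
Log2 difference (RD minus control, horizontal) of each of the 97 member probe sets at the floor, with the brightest of a gene filled and the others open. Dotted lines mark 2-fold, and 87 of the 97 points lie to the right of 0, with SEC24D farthest right.

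The promoters of these genes were examined for sequence elements known from the response to unfolded proteins, because most members differed in the same direction. RefSeq promoter windows (GRCh38.p14) of 300 bases, from 250 before to 50 after an annotated start, were found for 38 of the 41 genes. SPCS1, SRPRA and SEC24D had no entry. The unfolded protein response element (UPRE), searched as TGACGTGG on both strands, was present in 11 of the 38 genes (28.9%). It was present in 0.927% of the 27305 genes in the table and in 1.14% of the 10415 genes of the table that reached the floor on the arrays. By group, it was found in 3 of 5 COPI genes, 3 of 11 COPII genes, 4 of 20 translocon and signal recognition genes and 1 of 2 KDEL receptor genes. The ER stress element of chaperone promoters (CCAAT and CCACG separated by 9 bases) and its second form (ATTGG and CCACG separated by 1 base) were in none of the 38 genes, and in 0.0916% and 0.0696% of all genes. Of 14 ER chaperone genes with a window, 6 held the first form, 2 the second and 1 the UPRE. The matches in the members are given with 10 bases on either side, since the element is what the promoters of these 11 genes share. They are written on the strand of the gene from 5′ to 3′, with the 8 bases of the element in capitals.
SEC62 (chr3:169966780-169966807, plus strand): cctcctcgctCCACGTCAgagggaaccg
SRP19 (chr5:112861165-112861192, plus strand): agtcttcatgCCACGTCAgagactagag
SSR3 (chr3:156554149-156554176, minus strand): ctgataacagCCACGTCAgcaaggaaac
SSR4 (chrX:153794529-153794556, plus strand): cagggaggggCCACGTCAgtgctgccag
SEC16A (chr9:136484708-136484735, minus strand): ggccctggtgCCACGTCAgccggactga
SEC23A (chr14:39103222-39103249, minus strand): cccctcctctTGACGTGGcagaggcggc
SEC24A (chr5:134648596-134648623, plus strand): tgagagtcggTGACGTGGcggcgaggcc
COPA (chr1:160343228-160343255, minus strand): agagggtcgcTGACGTGGaggcgtccga
COPB1 (chr11:14499842-14499869, minus strand): ccacccccttCCACGTCAgccaaggact
COPB2, nearer match (chr3:139389633-139389660, minus strand): cccggaagttCCACGTCAgtcagtctga
COPB2, farther match (chr3:139389826-139389853, minus strand): ctcagcggcaCCACGTCAcggcccttag
KDELR3 (chr22:38468040-38468067, plus strand): gccgccctggCCACGTCAccgcccggcc

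Of these 12 matches, 9 read CCACGTCA on the strand of the gene and 3 read TGACGTGG. In 10 genes the match lay in the window of 1 annotated start, before that start in 7 genes, across it in SEC23A and after it in SEC16A and COPA. Among these 7, the match began from -17 in SEC62 to -179 in SEC24A, counted from the start. COPB2 had matches in the windows of 2 annotated starts, and they began at -196 and -3 from one start and at -163 and 31 from the other. The window of SEC24A is shown whole, since this gene had the highest log2 difference among the members with a match.
SEC24A (chr5:134648535-134648834, plus strand): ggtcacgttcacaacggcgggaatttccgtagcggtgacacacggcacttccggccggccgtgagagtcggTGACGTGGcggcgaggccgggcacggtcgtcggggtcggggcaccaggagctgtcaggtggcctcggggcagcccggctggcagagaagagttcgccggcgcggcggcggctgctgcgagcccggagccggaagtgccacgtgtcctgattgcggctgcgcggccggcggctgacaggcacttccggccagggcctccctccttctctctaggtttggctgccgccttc

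**Figure D3:**
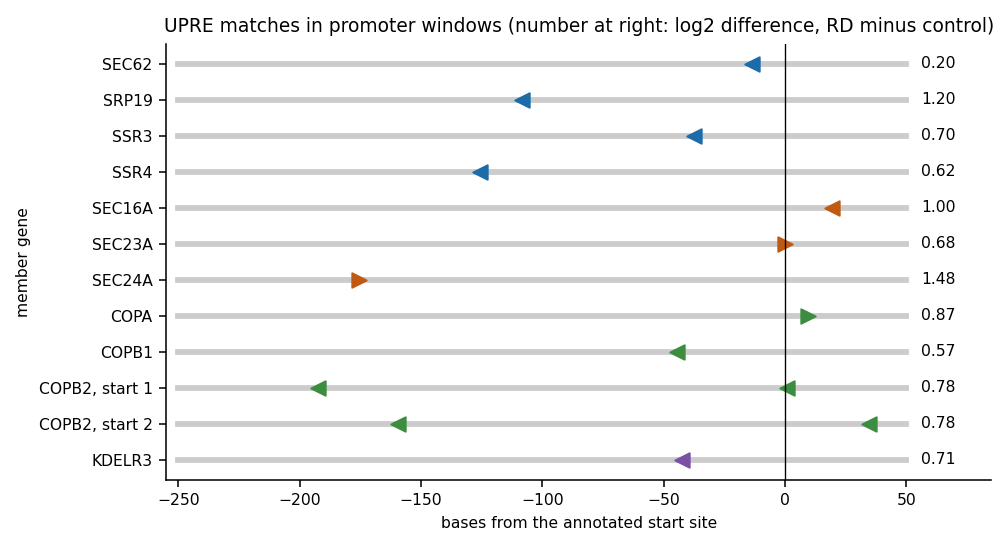
Place of each of the 12 UPRE matches (triangles, pointing right where the element reads TGACGTGG on the strand of the gene) in the promoter windows of 11 members, in bases from the annotated start (vertical line), with COPB2 drawn once from each of its 2 starts, numbered by coordinate. Numbers at the right are log2 differences in signal (RD minus control), all above 0, from 0.20 for SEC62 to 1.48 for SEC24A.

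A match to the element did not set apart the members with the higher differences. The 11 genes with a match had a median log2 difference of 0.71, with 3 counted as higher, and the 27 without a match had a median of 0.69, with 8 counted as higher. By the brightest probe set, all 11 genes with a match had a higher RD signal, as did 23 of the 27 without, although the 5 probe sets of SEC62, which has a match, disagreed in direction. Across the array, 119 genes at the floor held the UPRE in a window and had a median log2 difference of 0.42 (23 higher and 8 lower), against -0.0075 over 10296 genes without it (1207 higher and 1345 lower). Without the members, the median of the remaining 108 genes was 0.38, with 20 higher and 8 lower. The first form of the ER stress element, which no member held, was in 14 genes at the floor. Their median was 0.96, with 7 higher and 1 lower. For the 16 genes with the second form it was 0.34, with 3 higher and 1 lower. Of these genes, 6 with the first form and 2 with the second belong to the ER chaperone list described below. That list had higher signals itself, and the medians without its genes were not computed. The shorter string ACGTG, which lies within the UPRE, was found in 25 of the 38 members (65.8%), in 24.9% of all genes and in 31.7% of those at the floor. By the brightest probe set, all 25, SEC62 included, had a higher RD signal and 10 were counted as higher, with a median of 0.85. Of the 13 members without it, 9 had a higher signal, SRP68 alone was counted as higher, and the median was 0.66. The 4 members with a lower signal by the brightest probe set, SEC11A, SPCS3, SRP9 and SRP14, were all among the 13. However, SEC11A was nearly equal (-0.05), and the other probe sets of SPCS3 were higher, by 0.24 and 0.27. SEC24D and SRPRA, both counted as higher, had no window and fall in neither set. Across the array, genes at the floor with and without ACGTG differed little, with 412 of 3297 (12.5%) and 818 of 7118 (11.5%) counted as higher and medians of 0.026 and -0.017. These matches describe letters in fixed windows, and genes with several annotated starts had several windows (53 for the 38 genes).

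Among the genes of the translocon and signal recognition, 7 of 22 were counted as higher and none as lower, with a median log2 difference of 0.66. The pore of the Sec61 channel is formed by the alpha subunit. The signal of SEC61A1, which encodes the main alpha subunit, was 2.66-fold higher after RD (4306.2 in control, 11453 in RD), a log2 difference of 1.41. Its other probe set differed by 1.90, and its name marks sequence that may be shared with other genes. SEC61A2, the second alpha gene, was dim, with signals of 148.5 and 236, and its 3 probe sets ranged from -0.16 to 0.67. SEC61B, the beta subunit, had signals of 10745.4 and 16939.7 (1.58-fold), short of 2-fold by its brightest probe set. Its other probe set was dim (33.4 and 129.3), under the floor in control, and differed by 1.95. SEC62 and SEC63 are membrane proteins that help chains enter the channel, and SEC63 carries a J domain that recruits the chaperone BiP. SEC63 was 2.73-fold higher (3627.3 and 9919.7), and its 5 probe sets all lay between 0.79 and 1.64. The brightest probe set of SEC62 had signals of 8656.5 and 9950.5, a log2 difference of 0.20, but its 5 probe sets ranged from -0.66 to 0.67, so that no direction can be given for it.

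In signal peptidase, the paralogous catalytic subunits differed from each other. SEC11A had nearly equal signals of 14216.7 (control) and 13740.1 (RD), and its log2 differences by 2 probe sets were -0.05 and -0.04. SEC11C was 2.47-fold higher, from 2056 to 5080.6, by its brightest probe set and 1.37-fold higher by a dim one. The accessory subunits stayed within 1.5-fold. SPCS1 had signals of 13470 and 15057.4 (log2 difference 0.16), and the 3 probe sets of SPCS2 lay between 0.30 and 0.31. SPCS3 had signals of 5070.3 and 3876.9 by its brightest probe set, a log2 difference of -0.39. The name of that probe set marks sequence that may be shared with other genes, and the other 2 probe sets of SPCS3 differed by 0.24 and 0.27. Thus SEC11C was the 1 signal peptidase gene counted as higher.

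The subunits of SRP did not all differ in the same direction. SRP9 and SRP14 form the heterodimer of the Alu domain, which slows elongation, and both had lower signals, short of 2-fold. SRP9 had signals of 22778.4 in control and 16868 in RD (log2 difference -0.43), and SRP14 had 16846.7 and 12998 (-0.37). The subunits of the S domain, which binds signal sequences, had higher signals. SRP19, which helps the particle assemble, was 2.30-fold higher (8132.5 and 18713.4). SRP54, the GTPase that holds the signal sequence, was 2.19-fold higher (2549 and 5573). The heterodimer of SRP68 and SRP72 was represented by SRP68 at 2.09-fold (3836.4 and 8014) and SRP72 at 1.63-fold (10415.6 and 16996.2). All 5 probe sets of SRP72 at the floor were higher, by 0.68 to 1.18 on the log2 scale. The mean log2 difference was -0.40 over the Alu domain genes and 1.03 over the 4 S domain genes, a description with no spread between cultures to set it against. SRP9, SRP14, SRP19, SRP54 and SRP68 rested on 1 probe set each, and those of SRP9, SRP19 and SRP68 carry a suffix for sequence shared between transcripts.

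Both subunits of the SRP receptor had higher signals. SRPRA, the GTPase subunit that meets SRP54, was 2.22-fold higher (5885.2 in control and 13055.6 in RD), with a second probe set at 1.42 on the log2 scale. SRPRB, which anchors it in the membrane, was 1.81-fold higher (4638.8 and 8413.1), and its 3 probe sets ranged from 0.83 to 1.28. The name of its brightest probe set marks sequence that may be shared with other genes. Those without such a suffix were at 2.42-fold and 1.78-fold. The 4 genes of the TRAP complex were alike, and none reached 2-fold by its brightest probe set. SSR1 was at 1.49-fold (9824.7 and 14625.7), SSR2 at 1.58-fold (11338.8 and 17929.9), SSR3 at 1.62-fold (12491 and 20256.9) and SSR4 at 1.54-fold (8353.1 and 12822.2). The complex spanned 0.57 to 0.70 on the log2 scale, a range narrower than the SD between probe sets. The dimmer probe sets of SSR1 gave larger differences, up to 1.55, than its brightest one.

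All 12 COPII genes had higher signals in RD-treated cells, 5 of them at least 2-fold, with a median log2 difference of 0.85. The GTPase SAR1 begins coat assembly, SEC23 and SEC24 form the inner layer, SEC13 and SEC31 the outer cage, and SEC16A marks the exit sites on the ER. SEC24, which selects cargo, showed the widest range. SEC24D was 4.75-fold higher, from 1388.4 to 6596.7, the largest difference among the 41 members, and its other probe sets differed by 2.16 and 3.16 on the log2 scale. The probe set at 3.16 had a control signal of 65.7, just under the floor, and an RD signal of 585.3. SEC24A was 2.78-fold higher (1097.4 and 3053.8), with its other 2 probe sets at 1.48 and 2.63. SEC24B was at 1.63-fold (2131.3 and 3472.9) and SEC24C at 1.26-fold (1078.5 and 1354.5), each by 1 probe set. Of the inner layer partners, SEC23A was at 1.61-fold (7023.2 and 11283.9) and SEC23B at 1.80-fold (5791.7 and 10406.7). The next probe set of SEC23B was at 2.15-fold (3460.9 and 7448.7). The outer cage genes were near each other, with SEC13 at 2.21-fold (3896.3 and 8597.9) and SEC31A at 2.10-fold (5664.4 and 11885.3). SEC16A, at 2.00-fold (1683.9 and 3375.1), lay at the threshold. On the log2 scale it was under it, at 0.962, when each array was centred on its median. It was also under it with quantile normalization (0.985) and with an offset added to each signal (0.996). SAR1A was at 1.80-fold (3109.9 and 5599.3) and SAR1B at 1.39-fold (6411.6 and 8909.3). The 5 probe sets of SAR1B ranged from -0.02 to 0.48. SEC22B, a SNARE carried by these vesicles, was at 1.62-fold (9304 and 15052.1).

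Paralogs within the channel, the peptidase and the coats were compared by their log2 differences. The pair furthest apart was SEC24C and SEC24D (-1.92, the first minus the second), followed by SEC11A and SEC11C (-1.35). SEC24A exceeded SEC24B by 0.77, SEC61A1 exceeded SEC61A2 by 0.74 and SAR1A exceeded SAR1B by 0.37. In these 5 pairs the probe sets of both genes did not overlap, although SEC24B and SEC24C had 1 probe set each. How often this holds for other pairs of genes was not computed, so it is a description only. The probe sets of SAR1A and SAR1B nearly met (lowest 0.54 and highest 0.48). Their difference of 0.37 was near the SD of 0.34 between bright probe sets. SEC61A2 was dim, and the 0.74 lay under the SD of 0.76 between probe sets at the floor. SEC23A minus SEC23B was -0.16 and KDELR1 minus KDELR3 was -0.29, and in both pairs the probe sets overlapped. SEC24A with SEC24B and SEC24C with SEC24D are the closely related pairs of that family, so that in each of them 1 gene was past 2-fold and the other was not.

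All 5 COPI genes had higher signals, with a median log2 difference of 0.78, and COPG1 was the 1 counted as higher. COPG1, the gamma subunit, was 2.36-fold higher (759.2 in control and 1790.4 in RD) by its only probe set. COPA, the alpha subunit, was at 1.83-fold (3472 and 6349), and COPB2, the beta prime subunit that joins it in the outer part of the coat, was at 1.72-fold (7367.8 and 12644.2). COPB1, the beta subunit, was at 1.49-fold by its brightest probe set (17712.1 and 26348.9) and at 2.05-fold by the next (11125 and 22843.3). COPE, the epsilon subunit, was at 1.29-fold (4894.4 and 6298.3), the smallest difference of the coat. The KDEL receptors, which return ER chaperones from the Golgi, were higher but short of 2-fold. KDELR1 was at 1.34-fold (4133.9 and 5534.2) by its brightest probe set and 1.30-fold by the other. KDELR3 was at 1.64-fold (3567.2 and 5832.8), with its 3 probe sets between 0.13 and 0.92 on the log2 scale.

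Genes that work beside the members were described by the same rule. By this rule, 12.1% of all genes at the floor were counted as higher and 13.3% as lower. The COPII factors outside the members had 5 of 9 genes counted as higher, none lower and a median log2 difference of 1.13. They ranged from KLHL12 at 0.797 of control to TMEM39A at 3.60-fold and MIA2, a cargo factor of ER exit sites, at 5.09-fold (192.2 and 979.1). PREB, the exchange factor that loads SAR1, was 2.48-fold higher. The other COPI subunits and ARF cycle genes were mixed, with 4 higher and 1 lower of 11 and a median of 0.45. ARF1, 1 of the 4 higher, was represented by a dim probe set (76.5 and 214.4). ARFGAP3 was 2.84-fold higher and ARCN1, the delta subunit of the coat, 2.13-fold higher, while COPG2, a paralog of COPG1, had a log2 difference of -1.01 (321.7 and 159.3). Of 8 translocon helpers, SERP1 (3.88-fold) and TRAM1 (2.24-fold) were higher and TRAM2 was at 0.449 of control, with a median of 0.13. Of 11 genes of oligosaccharyltransferase, which adds glycans at the translocon, OSTC alone was counted as higher at 2.05-fold, TUSC3 was lowest at 0.799 of control, and the median was 0.54.

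Further lists of the secretory pathway had medians under or over the members' median of 0.70. No gene of the ER membrane protein complex (10 genes, median -0.12) or of the insertion of tail-anchored proteins (6 genes, median 0.11) differed 2-fold. Of 19 ER to Golgi cargo receptors, TMED5 (2.33-fold) and SURF4 (2.26-fold) were higher and ERGIC1 (0.336 of control) was lower, with a median of 0.25. Of 20 ER to Golgi SNAREs and tethers, 4 were higher, led by BET1L at 2.92-fold and GOSR2 at 2.61-fold, and TRAPPC1 was at 0.459 of control, with a median of 0.33. The clathrin coat, which acts at later steps, had 1 higher (AP3D1, 2.20-fold) and 2 lower genes (AP1S1 at 0.339 and CLTB at 0.354 of control) of 21, and a median of -0.23. For the cargo receptors and the clathrin coat, the counts did not exceed the shares over all genes at the floor (12.1% higher and 13.3% lower). The ER chaperones, which the KDEL receptors return to the ER, had 8 higher and no lower genes of 15 and a median of 1.04, from CALR at 1.17-fold to DNAJB9 at 6.77-fold. Of 10 genes for transcription factors linked to secretory pathway genes, 7 were higher and none lower, with a median of 1.19. BHLHA15 was 8.63-fold higher (77.6 and 669.7, dim in control) and DDIT3, a factor of the stress response, 7.84-fold higher (1838.1 and 14414.3). At the other end, ATF6B was at 0.685 of control and ATF6 at 1.24-fold, and XBP1 was 2.44-fold higher (4515.4 and 11022.2). The difference between the members and these lists could not be tested with 1 array per condition.

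**Figure D4:**
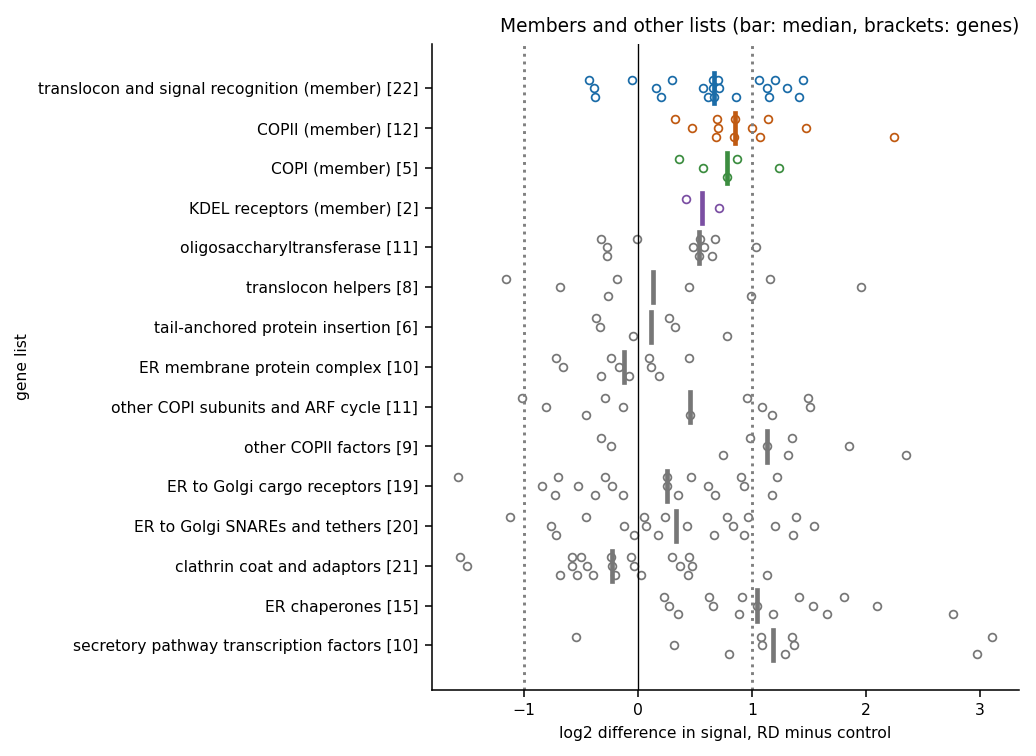
Log2 difference (RD minus control, horizontal) of each gene at the floor in the member groups (coloured) and in the other lists (grey), with vertical bars for medians, dotted lines at 2-fold and the number of genes in brackets. The medians of the member groups lie between 0.57 and 0.85, that of the clathrin coat at -0.23 and that of the ER chaperones at 1.04.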

How the data were processed

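The values of 1 control array and 1 RD array (Affymetrix HG-U133 Plus 2.0) were used. The deposited values are linear intensities per probe set (MAS5 signals per the labels), and no detection calls were used. No MAS5 version or target intensity is named in the sources used here. MAS5 subtracts mismatch signals, so low signals are noisy, and scaling makes each signal relative to its array. Log2 differences were taken directly, without offset or rescaling. Of 54613 probe sets, 41091 were paired with 1 gene, 1801 with several genes (not used) and 11721 were unnamed here. Symbols were checked against RefSeq (GRCh38.p14), which changed none.

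Every measured member is given. For each other list, up to 2 genes at each end were to be named, and PREB, ARCN1 and XBP1 were chosen after their values were seen. Members and lists were chosen with earlier results of these data known. No test of the treatment was possible. Promoter windows came from RefSeq and were searched for exact letters on both strands. Alternatives were median centring, quantile normalization, adding 17.1 (the 25th percentile) to each signal, the median over probe sets, probe sets without a shared-sequence suffix, other floors and other thresholds. Scripts were tested on simulated data. The software was matplotlib 3.10.9, pandas 2.3.3, numpy 2.4.6 and Python 3.11.15.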

Additional observations from a re-analysis of the deposited data

How the results depend on the processing

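All 4 group medians and the median over all members stayed above 0 and within 0.34 (the SD between bright probe sets) of the reported values under each alternative scaling, offset, probe set and floor. No member was counted as lower under any alternative. Of 58 values of the members past 2-fold under other scalings, offsets and probe set choices, all stayed above 0 and 56 stayed within 0.34. A floor cannot move these bright genes. One exception was SEC11C, at 0.88 with the median over its probe sets. The other was SEC63, at 0.91 with its brightest probe set without a shared-sequence suffix. SEC61A1, SRP19, SRP68, SRPRA, SEC13, SEC16A and SEC31A had no probe set without that suffix, so this choice gave no value for them. The restriction to such probe sets left 9 COPII genes, of which 3 rather than 5 were counted as higher. SEC22B was among these 3, through a dimmer probe set at 1.62. The COPI count became 2 rather than 1, as COPB1 was past 2-fold by its second probe set. A threshold of 1.5-fold gave 28 higher members, namely 14 of the translocon and signal recognition, 10 of COPII, 3 of COPI and 1 KDEL receptor. A threshold of 3-fold left 1 member (SEC24D), with 0 of the translocon and signal recognition, 1 of COPII and 0 of COPI, while 5.21% of all genes at the floor were at least 3-fold higher. This 1 of 41 did not exceed the share over all genes, unlike the counts at 2-fold and 1.5-fold. The counts thus depend on the threshold, because most members lay between 1.5-fold and 3-fold. Signals near the floor limit SEC61A2 and the dim probe sets. No paired analysis was possible because each condition had 1 array.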
